A study of Mus musculus with 24 samples.

Results

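Cholesterol synthesis was followed in the liver through 7 named genes, out of 25746 genes listed in the count data. They are Srebf2, which encodes the transcription factor SREBP2, and the genes of 6 enzymes of the pathway, Acat2, Hmgcs1, Idi1, Fdps, Sqle and Cyp51. The genes were given by name as known targets of SREBP2, by a rule that holds no measured value, although earlier results of these data were known when they were chosen. All 7 were found by symbol and all 7 passed the filter on low counts. RNAseq counts of liver RNA came from 24 mice of the C57/BL6N background, 12 weeks old. The groups were male wild type (mWT), male knockout (mKO), female wild type (fWT) and female knockout (fKO), with 6 mice and 6 libraries each. Knockout mice lacked the whole cluster of Mup genes on both chromosomes, which encode the major urinary proteins that the mouse liver secretes. All knockout mice descended from a single male founder made with CRISPR/Cas9 and came from an intercross of heterozygous mice. All animals ate chow, were fasted briefly and anaesthetised for a scan before the liver was taken.

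The liver makes cholesterol from acetyl-CoA through mevalonate, farnesyl diphosphate and squalene. SREBP2 is held in the endoplasmic reticulum while membrane sterol is plentiful. When sterol falls, its escort protein carries it to the Golgi apparatus, where it is cleaved, and the released fragment enters the nucleus and raises transcription of the synthesis enzymes, of LDL uptake and of Srebf2 itself. The level of Srebf2 mRNA therefore does not measure how much of the protein has been cleaved.

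Total counts per library lay between 15361901 and 26261394. Reads on the 22 Mup genes made up 1.7 to 3.68% of all counts in mWT and 0.344 to 0.555% in fWT mice, and no KO library held more than 11 such reads. The 5 hepatocyte markers summed to between 92670 and 147071 CPM (read counts scaled to a common library size) in every library. Markers of red blood cells summed to 149 to 260 CPM in males and 40.5 to 67.8 CPM in females, so they differed with sex in both genotypes. In whole liver, fewer cells of a type and less RNA per cell cannot be told apart.

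Upstream sequence was at hand in the RefSeq table of GRCm38 promoters for 5 of the 7 genes (Srebf2, Acat2, Hmgcs1, Idi1 and Cyp51), covering 250 bases before and 50 after each start. The letters TCACCNCA, taken from sterol response elements after these promoters had been read, were searched on both strands. They occurred once each at Srebf2, Hmgcs1 and Cyp51, and in 4.42% of all 32851 promoters of the table. The stretches around these matches are shown in the direction of each gene because SREBP2 binds elements of this kind, with the matched letters in capitals.
Srebf2, chr15:82147079-82147142, plus strand: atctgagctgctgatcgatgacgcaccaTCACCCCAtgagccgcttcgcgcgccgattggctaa
Hmgcs1, chr13:119690186-119690249, plus strand: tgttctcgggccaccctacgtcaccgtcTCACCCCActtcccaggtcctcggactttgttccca
Cyp51, chr5:4104750-4104813, minus strand: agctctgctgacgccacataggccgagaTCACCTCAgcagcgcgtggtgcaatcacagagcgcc

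The matches begin 162, 137 and 88 bases before the RefSeq start of Srebf2, Hmgcs1 and Cyp51. Hmgcs1 alone among the 5 also holds the letters TCACNCCAC, a different pattern that overlaps the same match and is present in 1.24% of all promoters. The letters CCAAT, bound by NF-Y, a factor that acts with SREBPs, were found in either direction in 4 of the 5 promoters, with 4 matches at Hmgcs1, 2 at Idi1 and 1 each at Srebf2 and Cyp51. CCAAT letters are common and occur in 37.4% of all promoters. The windows of Acat2 and Idi1 hold no TCACCNCA.

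In the GENCODE M21 annotation of GRCm38, Srebf2 lies on chromosome 15 between positions 82147181 and 82205379, and Sqle on the same chromosome between 59315077 and 59331192. Hmgcs1 (119690379 to 119708260) and Idi1 (8885501 to 8892451) lie on chromosome 13. Fdps is on chromosome 3 (89093588 to 89101959), Cyp51 on chromosome 5 (4081145 to 4104746) and Acat2 on chromosome 17 (12942890 to 12960747). Several members share sequence with other genes, and the sources used here do not say how reads with several matches were counted. Of all stretches of 100 bases in the Acat2 transcripts, 28.9% also occur in Acat3, its neighbouring copy. For Fdps, 20.5% also occur in Gm43738, which overlaps it on the same strand with 1124 shared exon bases, and for Idi1, 15.8% also occur in Gm13502. Counts of Acat2, Fdps and Idi1 are therefore uncertain by the reads that such stretches yield. On the opposite strand, Hmgcs1 shares 557 exon bases with Gm48342, Idi1 323 with Gm48574 and Cyp51 166 with Akap9, and the strand setting of the counting is not given in the sources used here. No stretch of 100 bases, read on the strand of the transcripts, was shared by Srebf2, Hmgcs1, Sqle or Cyp51 with another annotated transcript.

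Expression levels are given as CPM after TMM scaling, and levels of different genes are compared only per kilobase of exon. In mWT mice, Fdps (66.9 ± 17.3 CPM per kilobase, SD, n = 6), Hmgcs1 (62.1 ± 32.5) and Cyp51 (46.9 ± 8.69) stood highest. Acat2 (24.9 ± 5.92), Sqle (16.9 ± 4.78) and Idi1 (10.6 ± 2.62) followed, and Srebf2 was lowest at 5.44 ± 1.32 CPM per kilobase. The ranges of Fdps, Hmgcs1 and Cyp51 overlapped, as did those of Acat2 with Sqle and of Sqle with Idi1, whereas Cyp51 was separate from Acat2 and Idi1 from Srebf2. In mKO, fWT and fKO mice the same 3 enzymes came first and Acat2, Sqle, Idi1 and Srebf2 kept this order, with Hmgcs1 at the top at 77.7, 69.3 and 108.7 CPM per kilobase, respectively. Srebf2, which encodes the regulator, was thus the least abundant of the 7 transcripts in each group.

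**Figure D1:**
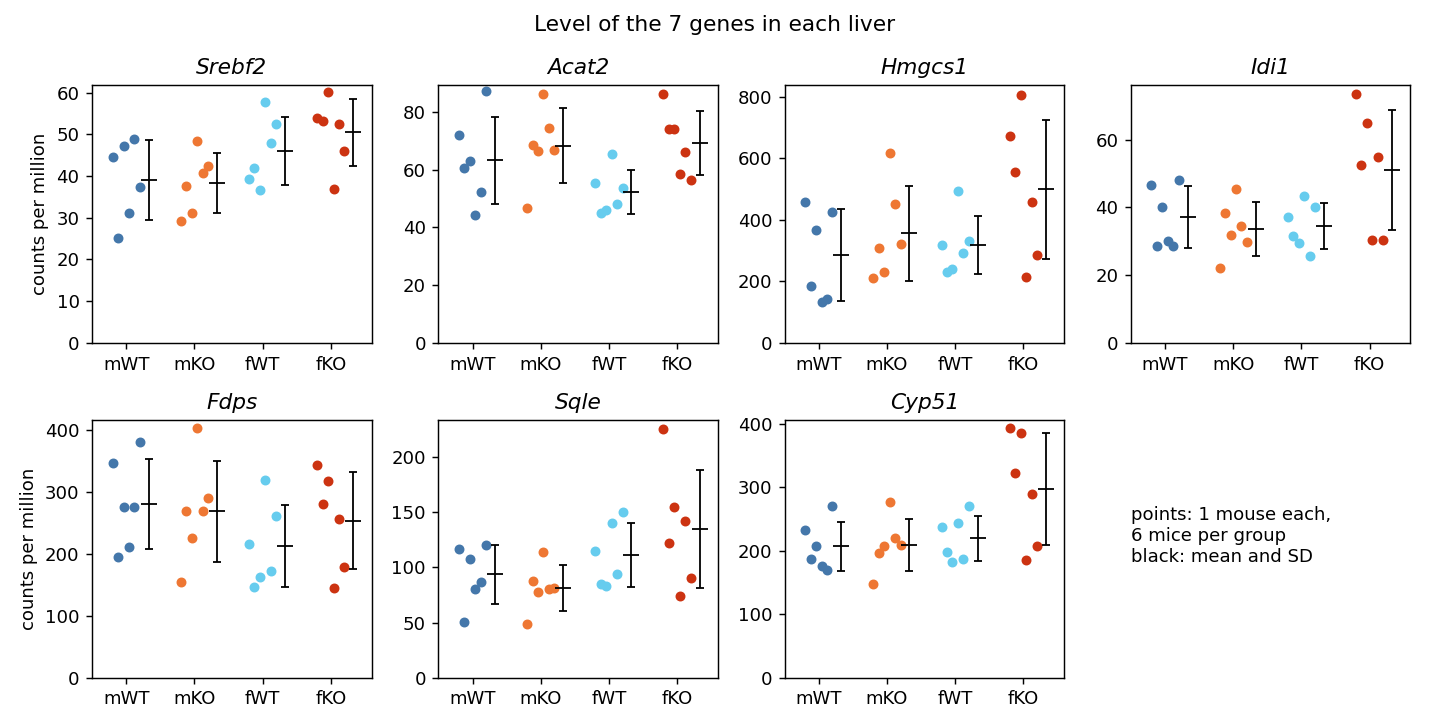
Level of each gene in CPM (vertical axes, linear, from 0) in mWT, mKO, fWT and fKO livers; each point is 1 mouse and the black marks give the mean and SD of 6 mice. The groups overlap for all 7 genes; fKO means are above fWT means throughout, and fKO mice spread most widely for Hmgcs1, Idi1, Sqle and Cyp51.

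Srebf2 differed little between KO and WT mice of either sex. Its level ran from 25.2 to 48.8 CPM in mWT (median 41.0) and from 29.3 to 48.5 CPM in mKO mice (median 39.2). In females it ran from 36.7 to 57.7 CPM in fWT (median 45.01) and from 36.9 to 60.1 CPM in fKO mice (median 52.9). Both pairs of groups overlapped almost entirely, and only 1 fKO mouse stood above all fWT mice. The log2 fold change for KO was −0.03 (SE 0.157, adjusted p = 0.976) in males and 0.13 (SE 0.155, adjusted p = 0.949) in females, both from the quasi-likelihood test of edgeR, adjusted by the Benjamini-Hochberg method over all genes.

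KO mice were compared with WT mice of the same sex, since the RNAseq was made to follow, at the level of transcripts, the metabolic changes that accompany loss of the Mup genes. In males, 0 of the 7 genes reached the cut-off of the study, an unadjusted p-value under 0.01, against a background of 3.52% of all 12330 genes tested, and 0 had an adjusted p-value under 0.05 (background 0.211%). The median log2 fold change of the 7 was −0.03, beside −0.0021 over all genes tested, with 3 genes higher and 4 lower in mKO. No member therefore stood out in male KO liver, where p-values ran from 0.386 to 0.935.

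Among the male values, Hmgcs1, which condenses acetoacetyl-CoA with acetyl-CoA to HMG-CoA, had the widest spread. It lay between 131.9 and 460 CPM in mWT (median 275.4) and between 211.9 and 618.7 CPM in mKO mice (median 314.6). The mKO mean was the higher one, at 357.1 ± 154.1 against 285.2 ± 149.2 CPM (SD, n = 6 each), but 5 of 6 mKO mice fell within the mWT range, and the log2 fold change was 0.32 (SE 0.366, adjusted p = 0.839 from edgeR). It was 0.10 without mKO mouse 4 and 0.51 without mWT mouse 1. Squalene epoxidase (Sqle), the first oxygen-requiring step toward sterols, had the lowest fold change of the 7. It was expressed at 81.5 ± 20.8 CPM in mKO and 93.7 ± 26.5 CPM in mWT mice (log2 fold change −0.20, SE 0.253, adjusted p = 0.863). Acat2, which joins 2 acetyl-CoA at the start of the pathway, gave 0.11 (SE 0.147), Idi1, the isopentenyl diphosphate isomerase, −0.14 (SE 0.218), Fdps, the farnesyl diphosphate synthase, −0.06 (SE 0.242), and Cyp51, which removes the 14-alpha methyl group of lanosterol, 0.01 (SE 0.173).

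In females, all 7 genes had a higher mean in fKO than in fWT mice, and 0 passed the cut-off. The background in this comparison was 0.876% of genes with an unadjusted p-value under 0.01 and 0.0892% with an adjusted p-value under 0.05, again with 0 members. The median log2 fold change of the 7 was 0.41, beside −0.0026 over all genes tested. The members move together from mouse to mouse, so that 7 genes on the same side are not 7 separate observations.

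Acat2 had the smallest p-value of the female comparison. Its level lay between 45.04 and 65.4 CPM in fWT (median 50.7) and between 56.4 and 86.3 CPM in fKO mice (median 70.1). Of the 6 fKO mice, 4 were above every fWT mouse, and the log2 fold change was 0.41 (SE 0.147, unadjusted p = 0.0106, adjusted p = 0.929 from edgeR). The sequence shared with Acat3 touches this value, and the part of shared reads in it was not tested. Acat3 was at 219.5 ± 52.4 CPM in fKO and 198.7 ± 23.0 CPM in fWT mice (log2 fold change 0.14, SE 0.11, adjusted p = 0.933 from edgeR).

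Idi1 lay between 25.6 and 43.2 CPM in fWT (median 34.4) and between 30.3 and 73.5 CPM in fKO mice (median 53.7). Here also 4 of 6 fKO mice exceeded all fWT mice, while the other two were below the fWT median. The log2 fold change was 0.57 (SE 0.217, unadjusted p = 0.0159, adjusted p = 0.929). Cyp51 showed the same layout, from 181.7 to 270.7 CPM in fWT (median 217.4) and from 184.8 to 393.8 CPM in fKO mice (median 306.1), with 4 of 6 fKO mice above all fWT mice. Its log2 fold change was 0.44 (SE 0.173, unadjusted p = 0.0188, adjusted p = 0.929).

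Hmgcs1 had the largest fold change of the 7 and the largest error. It ran from 232.1 to 493.8 CPM in fWT (median 306.1) and from 215.2 to 805.6 CPM in fKO mice (median 508.6). The fKO mice covered the whole fWT range, with 3 mice above it and 1 below it, and the log2 fold change was 0.65 (SE 0.367, adjusted p = 0.929). Sqle ran from 82.8 to 149.9 CPM in fWT and from 74.2 to 225.1 CPM in fKO mice, with a log2 fold change of 0.28 (SE 0.251, adjusted p = 0.944), which was 0.07 without fKO mouse 1. Fdps ran from 147.4 to 319.2 CPM in fWT and from 144.9 to 344.5 CPM in fKO mice, with a log2 fold change of 0.25 (SE 0.242, adjusted p = 0.946), which ranged from 0.14 to 0.40 with 1 mouse left out. For both genes fKO mice lay above and below the fWT range.

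The low fKO values belonged to the same animals. Mice 4 and 6 of the fKO group were below their group mean for all 7 genes. Without either of them, 3 members had an unadjusted p-value under 0.01 in the female comparison (Acat2, Idi1 and Cyp51). Without fWT mouse 4 or 6, 1 member did, and with any other mouse left out 0 did. DESeq2 gave the same 3 genes from all mice. No alternative fit that was run brought an adjusted p-value of a member under 0.05.

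The KO effect was then compared between the sexes. The interaction, the male effect minus the female effect, was negative for all 7 genes with a median of −0.33 (beside 0.000023 over all genes), and 0 members passed at an unadjusted p-value under 0.01 (background 1.16%) or an adjusted p-value under 0.05 (background 0.00811%). Idi1 came closest at −0.70 (SE 0.307, unadjusted p = 0.0318, adjusted p = 0.823), with an unadjusted p of 0.0098 without fKO mouse 6. A difference between the sexes in the KO effect was thus not shown for any member.

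**Figure D2:**
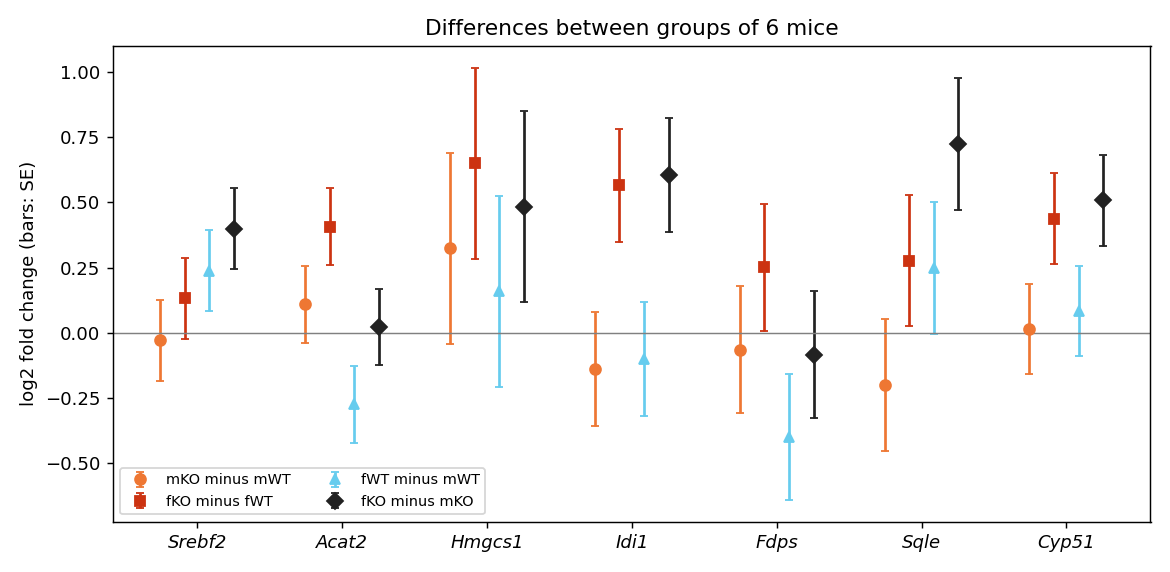
Log2 fold change of each gene (vertical axis) in 4 comparisons of 6 against 6 mice, with bars of 1 SE from edgeR. All 7 values for fKO minus fWT are above 0 (0.13 to 0.65), while values for mKO minus mWT lie on both sides of it (−0.20 to 0.32).

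Females were also compared with males of the same genotype. In WT mice, where 18.2% of all genes passed at the unadjusted cut-off of 0.01 and 17.3% at the adjusted one of 0.05, 0 members passed at either. Their median log2 fold change, female minus male, was 0.08, with 4 genes higher and 3 lower in fWT. The lowest was Fdps, at 213.4 ± 66.6 CPM in fWT and 281.4 ± 73.0 CPM in mWT mice (log2 fold change −0.40, SE 0.242, adjusted p = 0.281 from edgeR), with 3 of 6 fWT mice below all mWT mice.

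In KO mice, 6 of 7 genes had a higher mean in fKO than in mKO, with a median log2 fold change of 0.48 beside 0.0045 over all genes. Of the 7, 2 had an unadjusted p-value under 0.01, both higher in fKO. The background was 15.9% of genes in either direction and 7.89% higher in females, so 2 of 7 genes is a small count to set against it. No member had an adjusted p-value under 0.05, which 14.4% of all genes had.

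The 2 genes were Sqle and Cyp51. Sqle lay between 48.7 and 113.5 CPM in mKO (median 80.6) and between 74.2 and 225.1 CPM in fKO mice (median 132.2), and 4 of 6 fKO mice were above all mKO mice. Its log2 fold change was 0.72 (SE 0.253, unadjusted p = 0.00918, adjusted p = 0.0592). Cyp51 lay between 146.9 and 275.8 CPM in mKO (median 207.6), with 4 of 6 fKO mice above this range, and its log2 fold change was 0.51 (SE 0.174, unadjusted p = 0.00749, adjusted p = 0.0514). Idi1 followed at 0.60 (SE 0.217, unadjusted p = 0.0108, adjusted p = 0.0667) and Srebf2 at 0.40 (SE 0.156, unadjusted p = 0.0171, adjusted p = 0.0911). Fdps was the exception in direction, at −0.08 (SE 0.242), and Acat2 was level at 0.02 (SE 0.146).

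These calls lay close to the cut-off and were lost with most single mice left out. With 1 mouse left out, the number of members with an unadjusted p-value under 0.01 was 0 in 9 of 12 refits, those without mKO mice 1, 2, 3, 5 or 6 or fKO mice 1, 2, 3 or 5. It was 4 without mKO mouse 4, which had high values of all 7 genes, or without fKO mouse 4, and 3 without fKO mouse 6. With the mouse number as a block, 0 members were called. The adjusted p-value was under 0.05 for 3 members with DESeq2, for 3 without mKO mouse 4 or fKO mouse 6, and for 4 without fKO mouse 4.

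The spread between mice of the same group was wider for each of these genes than for the median gene tested. The pooled SD of log2 CPM within groups was 0.655 for Hmgcs1, 0.458 for Sqle, 0.441 for Fdps, 0.398 for Idi1, 0.322 for Cyp51, 0.293 for Srebf2 and 0.273 for Acat2. The median over the 12330 genes tested was 0.2. Of these genes, 2.66% varied more than Hmgcs1, 10.4% more than Sqle, 11.7% more than Fdps and 15.8% more than Idi1. Larger shares varied more than Cyp51 (24%), Srebf2 (28.6%) and Acat2 (32.1%). Among genes of similar level the share that varied more was smaller for each member. It was 2.45% for Hmgcs1, 2.73% for Sqle, 4.39% for Idi1 and 6.48% for Fdps. For Srebf2 it was 9.65%, for Acat2 10% and for Cyp51 11%. Within fKO mice the highest Hmgcs1 value was 3.74 times the lowest, and within mWT mice 3.49 times.

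This spread was shared by the members. In each mouse the deviation of every gene from its group mean was taken on the log2 scale. In mKO mouse 1 all 7 genes were below the group mean, with a mean deviation of −0.576, and in mKO mouse 4 all 7 were above it, with a mean of 0.526. In fKO mouse 4 all 7 were below it, with a mean of −0.648, and in fKO mice 1 and 3 all 7 were above it, with means of 0.49 and 0.394. The same layout held in WT mice, where all 7 genes were below the group mean in mWT mice 2 and 4 and fWT mice 2 and 3, and above it in mWT mice 1 and 3 and fWT mice 4 and 6. Each of the 4 groups thus held mice with all 7 genes below the group mean and mice with all 7 above it.

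**Figure D3:**
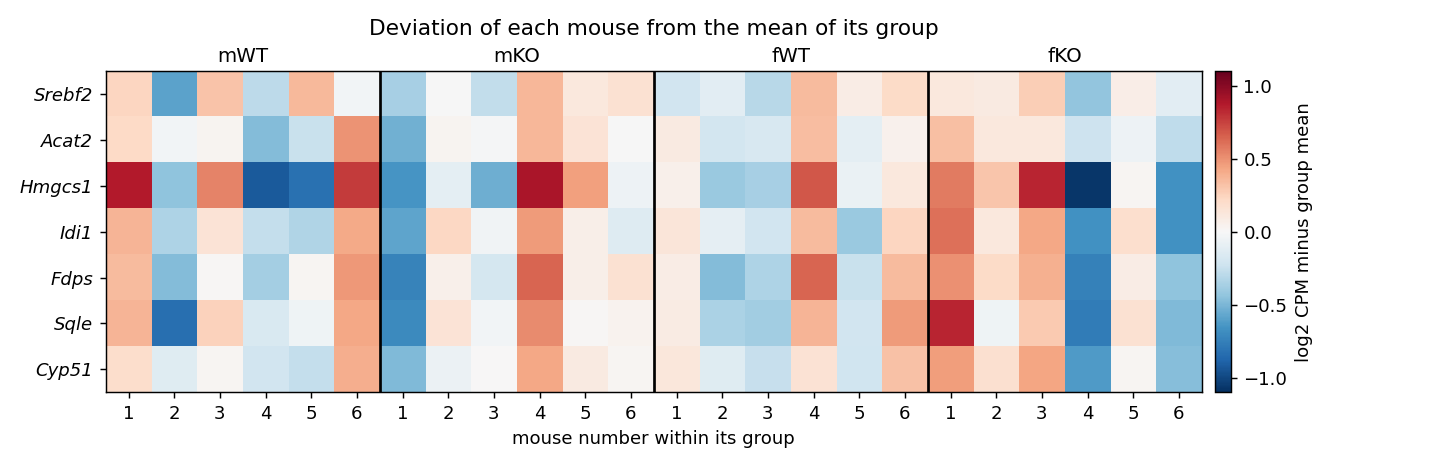
Deviation of log2 CPM from the group mean (colour scale) for the 7 genes (rows) in each of the 24 mice (columns, by group and mouse number). Whole columns share a colour, as in fKO mouse 4 (mean −0.648) and mKO mouse 4 (mean 0.526), and Hmgcs1 has the strongest colours.

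With group means removed, Srebf2 correlated with each of the 6 enzymes over the 24 mice. Pearson's r was 0.789 for Fdps, 0.765 for Sqle, 0.678 for Hmgcs1, 0.609 for Idi1, 0.589 for Cyp51 and 0.521 for Acat2. The permutation test, shuffling mice within groups, gave two-sided p-values between 2e-05 and 0.0226, and adjusted over the 6 relations they ran from 0.00012 to 0.0226. Spearman's rho lay between 0.57 and 0.739, with adjusted permutation p-values between 0.00078 and 0.0095. Without mWT mouse 2 and fKO mouse 4, the 2 mice farthest from the median of Srebf2, r lay between 0.517 and 0.741. How many of all genes tested correlate as strongly with Srebf2 was not counted. The values are therefore not shown to be particular to these enzymes.

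The relation of Srebf2 with the enzymes was also taken within each group of 6. In mKO mice r lay between 0.762 and 0.942 and in fKO mice between 0.724 and 0.954. In fWT mice it lay between 0.509 and 0.8, and in mWT mice between 0.167 and 0.761. By the exact permutation test, the adjusted p-value was under 0.05 for 5 of 6 relations in mKO, 4 of 6 in fKO, 0 of 6 in fWT and 0 of 6 in mWT mice. In mWT mouse 5, the log2 deviation of Srebf2 was 0.36 while that of Hmgcs1 was −0.819. Whether the relation differs between genotypes was not tested.

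The enzymes also varied together. Over their 15 pairs r ranged from 0.758 (Acat2 with Sqle) to 0.943 (Idi1 with Cyp51), with a median of 0.872. With every other gene tested, the r of the 6 enzymes ranged from −0.853 to 0.999 (median 0.00285). Values of both signs cancel in that median, so it does not show how rare an r of this size is. The other genes include Gm43738, which overlaps Fdps, so that its counts may not be separate. Within groups the median over the 15 pairs was 0.84 in mWT, 0.94 in mKO, 0.855 in fWT and 0.942 in fKO mice. The members come from the same libraries, and the mean of the 7 had an r of −0.123 with the total count, −0.0922 with the summed hepatocyte markers and 0.397 with the summed red blood cell markers; the part of these in the shared spread was not tested.

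Other genes were ranked by their r with the mean of the 7 genes over the 24 mice, as a description. Of the 10 genes at the top, 8 were further enzymes of cholesterol synthesis. Among these were squalene synthase (Fdft1, 0.967), phosphomevalonate kinase (Pmvk, 0.928), mevalonate diphosphate decarboxylase (Mvd, 0.92), the sterol C4-methyl oxidase Msmo1 (0.913) and the sterol dehydrogenase Nsdhl (0.902). The other two were Gm43738 (0.973), which overlaps Fdps, so that its counts may not be separate, and the retinol dehydrogenase Rdh11 (0.9).

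Of a list of 15 further synthesis enzymes, 12 were among the 100 genes most like the members out of 12323, and the median r of the list was 0.897. The median was 0.396 for 12 genes of LDL uptake and sterol transport, −0.0865 for 11 genes of sterol sensing and SREBP processing, −0.0677 for 14 genes of cholesterol outflow and storage and −0.283 for 11 enzymes of the isoprenoid branches, beside 0.0016 over all other genes. In the sterol sensing list, Insig1, which retains SREBP2 in the endoplasmic reticulum and is itself an SREBP target, had an r of 0.708 and Scap, the escort protein of the SREBPs, one of 0.687. Rnf139, a ubiquitin ligase of the endoplasmic reticulum, lay at the other end with −0.632. The isoprenoid enzymes, which lead from farnesyl diphosphate to ubiquinone, dolichol and prenylated proteins, ranged from −0.729 to 0.195.

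**Figure D4:**
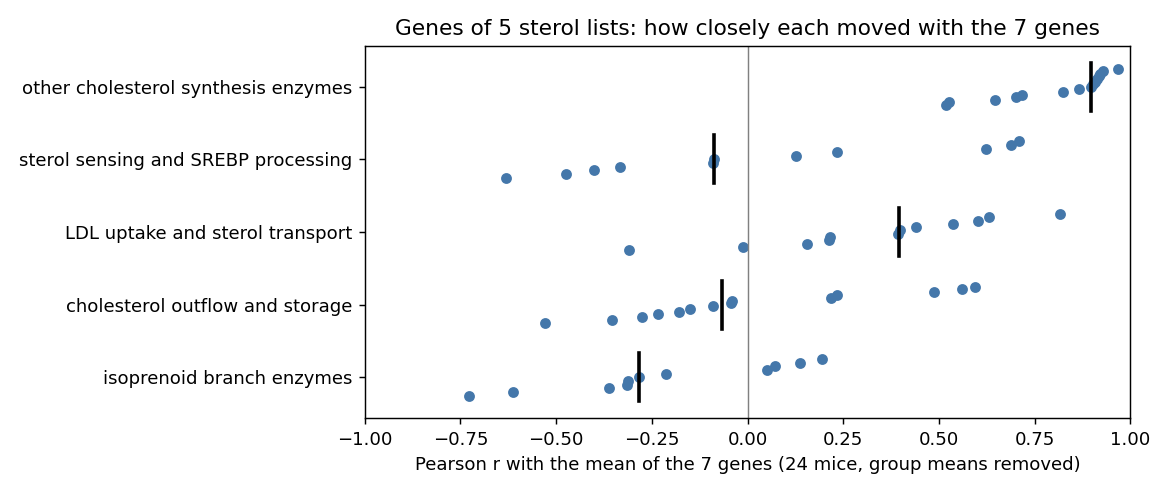
Pearson r (horizontal axis) of each gene of 5 lists with the mean of the 7 genes over 24 mice after removal of group means; points are genes and black bars are list medians. The further synthesis enzymes lie between 0.518 and 0.967 (median 0.897). The other lists have lower medians (−0.283 to 0.396), although some of their genes fall in the same range.

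The rest of the pathway was described through the same lists. Of the 15 further synthesis enzymes, 0 passed at an unadjusted p-value under 0.01 in males (background 3.52%). Of these, 5 were higher and 10 lower in mKO (median log2 fold change −0.04). In females 13 were higher in fKO and 2 lower (median 0.27), and 1 passed (background 0.876%). This was Lbr, the sterol C14-reductase of the nuclear envelope, at 15.8 ± 1.49 CPM in fKO and 13.0 ± 1.03 CPM in fWT mice (log2 fold change 0.27, SE 0.0899, unadjusted p = 0.00581, adjusted p = 0.929 from edgeR). The call of Lbr was lost in 7 of 20 alternative fits, each without 1 mouse (fWT mice 2, 3, 4 or 5 or fKO mice 1, 2 or 3), with unadjusted p-values up to 0.0207. In fKO against mKO mice, 14 of 15 were higher (median 0.33), and 3 passed, all higher in fKO, beside 7.89% of all genes. Hsd17b7, a ketosteroid reductase of the pathway (0.53, SE 0.136, adjusted p = 0.00861), and Lbr (0.33, SE 0.0905, adjusted p = 0.0125) held in all 20 alternative fits at the unadjusted cut-off, and Fdft1 (0.54, SE 0.193, adjusted p = 0.0624) was lost in 13 of them.

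Among the 11 genes of sterol sensing, Insig2, which also retains SREBP2 in the endoplasmic reticulum, rose in males. It was expressed at 340.9 ± 67.6 CPM in mKO and 161.7 ± 83.5 CPM in mWT mice (SD, n = 6), a log2 fold change of 1.08 (SE 0.294, unadjusted p = 0.00144, adjusted p = 0.146 from edgeR). In females it was at 166.8 ± 75.2 CPM in fKO and 143.2 ± 32.2 CPM in fWT mice, and the interaction did not pass (0.86, SE 0.412, unadjusted p = 0.05, adjusted p = 0.832). Rnf145, a ubiquitin ligase of the sterol response, fell by 0.48 on the log2 scale in mKO mice (SE 0.169, unadjusted p = 0.00844, adjusted p = 0.27), a call lost in 10 of 20 alternative fits, while that of Insig2 was kept in all 20. The other 9 genes of the list did not pass in males, and 0 of 11 passed in females. These counts stand beside 3.52% of all genes tested in males and 0.876% in females. The median log2 fold change of the list was −0.04 in males and 0.03 in females.

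Of 12 genes of LDL uptake and sterol transport, 1 passed in males (background 3.52%) and 0 in females (background 0.876%). Lysosomal acid lipase (Lipa), which frees cholesterol from the esters of LDL taken up, was at 271.8 ± 29.5 CPM in mKO and 218.4 ± 27.6 CPM in mWT mice (log2 fold change 0.32, SE 0.0932, unadjusted p = 0.00226, adjusted p = 0.173) and passed the unadjusted cut-off in all 20 alternative fits. Its female values were 285.4 ± 38.5 CPM in fKO and 242.8 ± 16.2 CPM in fWT mice (0.23, SE 0.0931, unadjusted p = 0.019). Between the sexes, 3 genes of the list were called higher and 1 lower in fWT than in mWT, and 4 higher and 1 lower in fKO than in mKO, where 18.2% and 15.9% of all genes were called. Vldlr, the VLDL receptor, was at 10.99 ± 2.84 CPM in fWT and 1.85 ± 1.01 CPM in mWT mice (log2 fold change 2.58, SE 0.392, adjusted p = 5.78e-05), and Npc2, which carries cholesterol within the lysosome, at 72.3 ± 3.83 and 53.4 ± 4.09 CPM (0.44, SE 0.0722, adjusted p = 8.49e-05).

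Of 14 genes of cholesterol outflow and storage, 1 passed in males, Cyp7a1, the rate-limiting enzyme of bile acid synthesis, which was lower in mKO mice (log2 fold change −1.81, SE 0.471, adjusted p = 0.135), and 0 passed in females. Of 11 isoprenoid branch enzymes, 1 passed in males, Pdss2, a subunit of the enzyme that makes the ubiquinone side chain (0.25, SE 0.0871, unadjusted p = 0.00874, adjusted p = 0.274), lost in 10 of 20 alternative fits, and 0 passed in females. Of all genes tested, 3.52% passed in males and 0.876% in females, so 1 call in a list this short is a small count. The list medians were −0.05 and 0.02 in males and 0.01 for both in females.

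Acat3, the copy beside Acat2, passed in males where Acat2 did not. It was at 250.2 ± 19.1 CPM in mKO and 185.3 ± 10.3 CPM in mWT mice (SD, n = 6), with every mKO mouse (218.3 to 270.7 CPM) above every mWT mouse (169.3 to 196.6 CPM). The log2 fold change was 0.43 (SE 0.11, unadjusted p = 0.000543, adjusted p = 0.111 from edgeR), and the call was kept in all 20 alternative fits. The r of Acat3 with Acat2 over the 24 mice was 0.282 after removal of group means, below that of Acat2 with any of the other 5 enzymes (0.758 to 0.872). The part of reads shared between the copies in these values was not tested.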

How the data were processed

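For each of 24 mice the authors prepared 1 stranded mRNA library of the liver, and all were read single-end in 1 multiplexed run. Per the submitters' processing notes and the methods of the study, reads were trimmed with fastp 0.20, aligned to GRCm38.p6 with STAR 2.7a and counted with featureCounts. The deposited files hold whole read counts for each Ensembl gene, to which the authors applied no normalization. The annotation release, strand setting and handling of reads with several matches are not given in the sources used here. Symbols and coordinates were taken from GENCODE M21 (25635 of 25746 genes matched).

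Counts were analysed with edgeR 4.0.16 in R 4.3.3. The 12330 genes that reached 0.66 CPM in 6 or more libraries were kept and scaled by TMM. All 24 libraries entered a single quasi-likelihood fit (robust dispersions, 1 mean per group). Calls use an unadjusted p-value under 0.01, with Benjamini-Hochberg adjusted p-values over all genes beside it. The procedure was tested on simulated counts. Log2 CPM for correlations used a prior count of 2. Figures were drawn with matplotlib 3.10.9.

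The 7 members, the gene lists and the tests were chosen with earlier results of these data known. Named are the members, genes of each list with an unadjusted p-value under 0.01 or the smallest p-values, and the 10 genes most like the members. Not every gene that this rule gives is reported here.

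Alternatives were DESeq2 1.42.0, its size factors, no filter, filterByExpr, the deviances of edgeR 4, only the groups compared, removal of the Mup genes, the mouse number as a block, and each mouse left out. A number names different animals in each group. Over 36 pairs of same-numbered mice, deviations from group means correlated with r between −0.335 and 0.253 (median −0.0019), so the numbers do not pair them. Every one of the 60 pairs of mice within groups differed by more than counting noise (lowest chi-square per gene 8.07).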

Additional observations from a re-analysis of the deposited data

How the results depend on the processing

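For the KO effect in males, 0 members were called under every alternative run, and 284 to 525 genes of all 12330 were called with 1 mouse left out (284 without mWT mouse 5). For the KO effect in females, the number of members called was 0 in the fit reported, 3 with DESeq2, 1 with its size factors, 1 with filterByExpr, 1 with only the 2 groups compared, and 0 to 3 with 1 mouse left out. For the interaction it was 0 to 1 with 1 mouse left out. For fKO against mKO it was 2 in the fit reported, 1 with no filter, 1 with only the 2 groups compared, and 0 to 4 with 1 mouse left out. The member called with only the 2 groups compared was neither Sqle nor Cyp51. Members with an adjusted p-value under 0.05 in fKO against mKO numbered 3 with DESeq2 and 0 to 4 with 1 mouse left out. With the mouse number as a replicate block, 0 members were called in fKO against mKO, and the number of members called in the other comparisons was 0 as without the block. No paired result is given more weight, since the numbers do not pair the mice.

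Uncalled values close to 0 changed sign with 1 mouse left out. In males the log2 fold change ranged from −0.22 to 0.053 for Fdps, −0.081 to 0.10 for Cyp51 and −0.13 to 0.045 for Srebf2. In fKO against mKO it ranged from −0.20 to 0.069 for Fdps and −0.066 to 0.10 for Acat2, and in fWT against mWT from −0.0090 to 0.35 for Hmgcs1. Of the 6 relations of Srebf2 with the enzymes, 6 passed over all mice, 5 in mKO, 4 in fKO, 0 in mWT and 0 in fWT mice on their own. The cause of these changes was not tested.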

Other observations

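Genes outside the sterol lists were also found among those most like the 7 members. They were read off the ranking after their values were seen and carry no test. Genes of fatty acid synthesis and its supply stood high, with an r over the 24 mice of 0.814 for Acss2, which makes cytosolic acetyl-CoA from acetate, 0.811 for Pgd, an NADPH-forming enzyme of the pentose phosphate pathway, 0.801 for Fasn, the fatty acid synthase, and 0.796 for Slc25a1, the mitochondrial citrate carrier. Mmab, a cobalamin enzyme whose gene lies beside that of mevalonate kinase, had an r of 0.891, and Pcyt2, of phosphatidylethanolamine synthesis, one of 0.864. Genes not picked for a role in lipid synthesis stood in the same range, such as Kptn (0.803), Sgsm1 (0.789), Vps18 (0.786) and Safb2 (0.783). The genes named are thus a choice from the ranking and show no theme of it. At the opposite end stood Selenop, the plasma selenoprotein secreted by the liver (−0.826), Phyh, the peroxisomal phytanoyl-CoA hydroxylase (−0.79), and the mitophagy receptor Bnip3l (−0.788). Trappc6b (−0.798), Smurf2 (−0.798), Trim23 (−0.796) and Fam126b (−0.793) ranked between Selenop and Phyh.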
